A study of Mus musculus with 18 samples.

Results

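The 10 genes described here encode enzymes that methylate DNA or histones, and the partners those enzymes need. They are Dnmt1, Uhrf1, Dnmt3a and Dnmt3b for DNA, Ezh1, Ezh2, Eed and Suz12 for the histone mark H3K27, Dot1l for H3K79 and Kmt2a for H3K4. They were taken by name, as the 28 probe sets on the array whose annotated symbol was one of these, out of 20672 genes with a named probe set. Each gene was read from its brightest probe set, and the others served as a check. RNA was measured on short-oligonucleotide arrays, in whole tissue. The values are log2 signals as deposited, so a difference of 1 is a doubling of signal.

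The mice fell into 3 groups, by genotype and tissue. Idh2R140Q/NHD13 mice carry a mutant Idh2, an isocitrate dehydrogenase that in this form makes 2-hydroxyglutarate, together with NHD13, a fusion of NUP98 and HOXD13. Their leukaemia is labelled as T-cell acute lymphoblastic leukaemia (T-ALL) of the DN1/DN2 type, the earliest stages of the thymus, and was sampled as spleen from 9 mice. SCL/LMO1 mice carry the T-cell oncogenes SCL and LMO1, and their leukaemia, labelled as cortical CD4+CD8+ T-ALL, was sampled as thymus from 6 mice. Wild-type thymus came from 3 mice and is the reference without leukaemia. The age, sex and strain of the mice, and the promoters that drive the transgenes, are not given in the sources used here. No other agent or allele is named, and the labels name no treatment. Every Idh2R140Q/NHD13 sample was spleen and every other sample thymus, so genotype, leukaemia type and tissue cannot be told apart in any comparison that includes the spleens.

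Some samples stood apart before any comparison. Idh2R140Q/NHD13 arrays 546 and 550 were nearly alike, with a root-mean-square gap of 0.212 (log2) over all 45101 probe sets. The next closest of 152 further pairs had 0.445. Both were averaged and counted as 1 sample, which left 17 (8, 6 and 3). Median signal was even across arrays, at 5.89 to 6.01. Erythroid signal was high in the spleens: the mean of 12 erythroid markers was 8.58 to 12.38 in Idh2R140Q/NHD13 samples, against 4.79 to 5.16 in SCL/LMO1 and 4.85 to 5.21 in wild-type samples. The mean of 12 T-lineage markers was 6.32 to 9.51 in Idh2R140Q/NHD13 spleens, against 11.67 to 11.97 in SCL/LMO1 and 10.91 to 11.75 in wild-type thymi. It was lowest in Idh2R140Q/NHD13 mice 525 (6.85), 531 (6.66) and 570 (6.32), so the T-lineage label is weakest there, and the tests on the 10 genes were also run without these 3 mice. Cd3d, a chain of the T-cell receptor complex, averaged 7.29 ± 0.94 in Idh2R140Q/NHD13 spleens (SD, n = 8) and 13.39 ± 0.18 in SCL/LMO1 thymi (SD, n = 6), and Cd2 averaged 5.37 ± 0.64 and 11.83 ± 0.33 in the same groups. In bulk RNA, fewer cells of a type and less RNA per cell cannot be told apart.

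DNA methylation is written by DNMT3A and DNMT3B on unmethylated sites and copied after replication by DNMT1, which UHRF1 brings to hemimethylated DNA. Polycomb repressive complex 2 (PRC2) joins EZH1 or EZH2, its catalytic subunits, to EED and SUZ12 and places the repressive mark H3K27me3. KMT2A and DOT1L place marks of active genes, and in leukaemias with a rearranged KMT2A both are known to keep HOXA genes and their partner MEIS1 active. DNMT3A, EZH2, EED and SUZ12 are recurrently mutated in human early T-cell precursor leukaemia.

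Several of these genes are known targets of E2F factors, which switch on genes for S phase, so the promoters were searched for 4 E2F-type words of 8 bases, TTTCCCGC, TTTGGCGC, TTTCGCGC and TTTGCCGC, on both strands. The windows ran from 250 bases before to 50 bases after each annotated start site (RefSeq, GRCm38.p6). All 10 genes had at least 1 window, 15 in all, and 4 windows of 4 genes held a word: those of Dnmt1, Uhrf1, Ezh2 and Suz12. Among all 32851 windows 744 held one, or 2.26%. Every word contains CpG, and the 15 windows were rich in it, with a median of 31 CpG against 7 in all windows. Of the windows with at least 31 CpG, 4 of 8 among these genes and 170 of 3469 in all (4.9%) held a word. Whether having a word goes together with following the mitosis genes across the spleens, described further on, was not tested. Among the genes with a word, Pearson's r with the mitosis mean was 0.94 for Uhrf1, 0.90 for Dnmt1, 0.72 for Suz12 and 0.62 for Ezh2. Uhrf1 and Dnmt1 passed the test of that correlation, and Ezh2 and Suz12 did not. Dot1l, whose window had 49 CpG and no word, rose with the mitosis mean (0.90) and passed. For the other genes without a word r was 0.55 for Eed, -0.58 for Ezh1, -0.69 for Dnmt3b, -0.77 for Dnmt3a and -0.84 for Kmt2a. The 4 windows shown are all those that held a word. They are written 5′ to 3′ on the gene's strand in lower case, with the words in capitals. The window of Dnmt1, at chr9:20952574-20952873 on the minus strand, held 2 words, that of Uhrf1, at chr17:56304063-56304362 on the plus strand, 1, that of Ezh2, at chr6:47594981-47595280 on the minus strand, 1, and that of Suz12, at chr11:79992856-79993155 on the plus strand, 1.
Dnmt1: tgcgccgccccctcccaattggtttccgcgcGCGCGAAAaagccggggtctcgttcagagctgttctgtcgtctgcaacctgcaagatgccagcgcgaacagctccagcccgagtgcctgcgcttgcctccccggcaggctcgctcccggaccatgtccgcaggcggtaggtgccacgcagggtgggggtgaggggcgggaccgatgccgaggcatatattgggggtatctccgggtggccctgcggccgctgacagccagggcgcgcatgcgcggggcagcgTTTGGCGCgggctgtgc
Uhrf1: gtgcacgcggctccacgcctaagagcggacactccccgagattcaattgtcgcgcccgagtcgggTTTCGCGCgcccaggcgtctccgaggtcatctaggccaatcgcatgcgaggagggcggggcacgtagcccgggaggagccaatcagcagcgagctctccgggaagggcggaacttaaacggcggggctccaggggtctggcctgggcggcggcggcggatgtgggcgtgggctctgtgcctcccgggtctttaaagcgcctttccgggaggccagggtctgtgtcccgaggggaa
Ezh2: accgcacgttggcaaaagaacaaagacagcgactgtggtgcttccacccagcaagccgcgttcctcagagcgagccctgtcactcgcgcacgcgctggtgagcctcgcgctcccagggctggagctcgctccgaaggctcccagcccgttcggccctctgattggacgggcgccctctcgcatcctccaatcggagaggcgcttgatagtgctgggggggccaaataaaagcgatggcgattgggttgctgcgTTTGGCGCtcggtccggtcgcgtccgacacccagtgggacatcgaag
Suz12: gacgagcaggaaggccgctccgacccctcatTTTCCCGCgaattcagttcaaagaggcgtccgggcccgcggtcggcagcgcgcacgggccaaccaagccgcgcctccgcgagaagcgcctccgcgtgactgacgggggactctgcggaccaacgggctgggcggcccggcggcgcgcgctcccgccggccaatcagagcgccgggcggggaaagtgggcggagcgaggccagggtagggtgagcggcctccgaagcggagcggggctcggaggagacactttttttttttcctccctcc
In Ezh2 the word TTTGGCGC begins 3 bases after the start site. In Dnmt1 the same word begins 33 bases after it, and GCGCGAAA, which is TTTCGCGC on the other strand, 219 bases before it. The Uhrf1 word begins 185 bases and the Suz12 word 219 bases before the start. A match of letters is a description of these windows and not a bound site.

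Against SCL/LMO1 thymus, 5 of the 10 genes were lower in Idh2R140Q/NHD13 spleen and none was higher. A gene was called changed at an adjusted p under 0.05 (limma, 3 groups in 1 fit, Benjamini-Hochberg over 20672 genes). The 5 were Kmt2a, Dnmt3a, Uhrf1, Ezh2 and Dot1l. By the same call 23.7% of all genes differed between these groups, 12.1% lower and 11.7% higher. The genes' median log2 fold change was -0.26, against 0.03 for all genes. Against wild-type thymus only Dnmt3b changed, 3.47-fold higher in Idh2R140Q/NHD13 spleen, in a comparison that called 17.4% of all genes (9.09% higher and 8.34% lower). Between SCL/LMO1 and wild-type thymus none of the 10 was called, while 11.6% of all genes were (5.06% higher and 6.55% lower). The 3 comparisons share samples and are not independent.

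**Figure D1:**
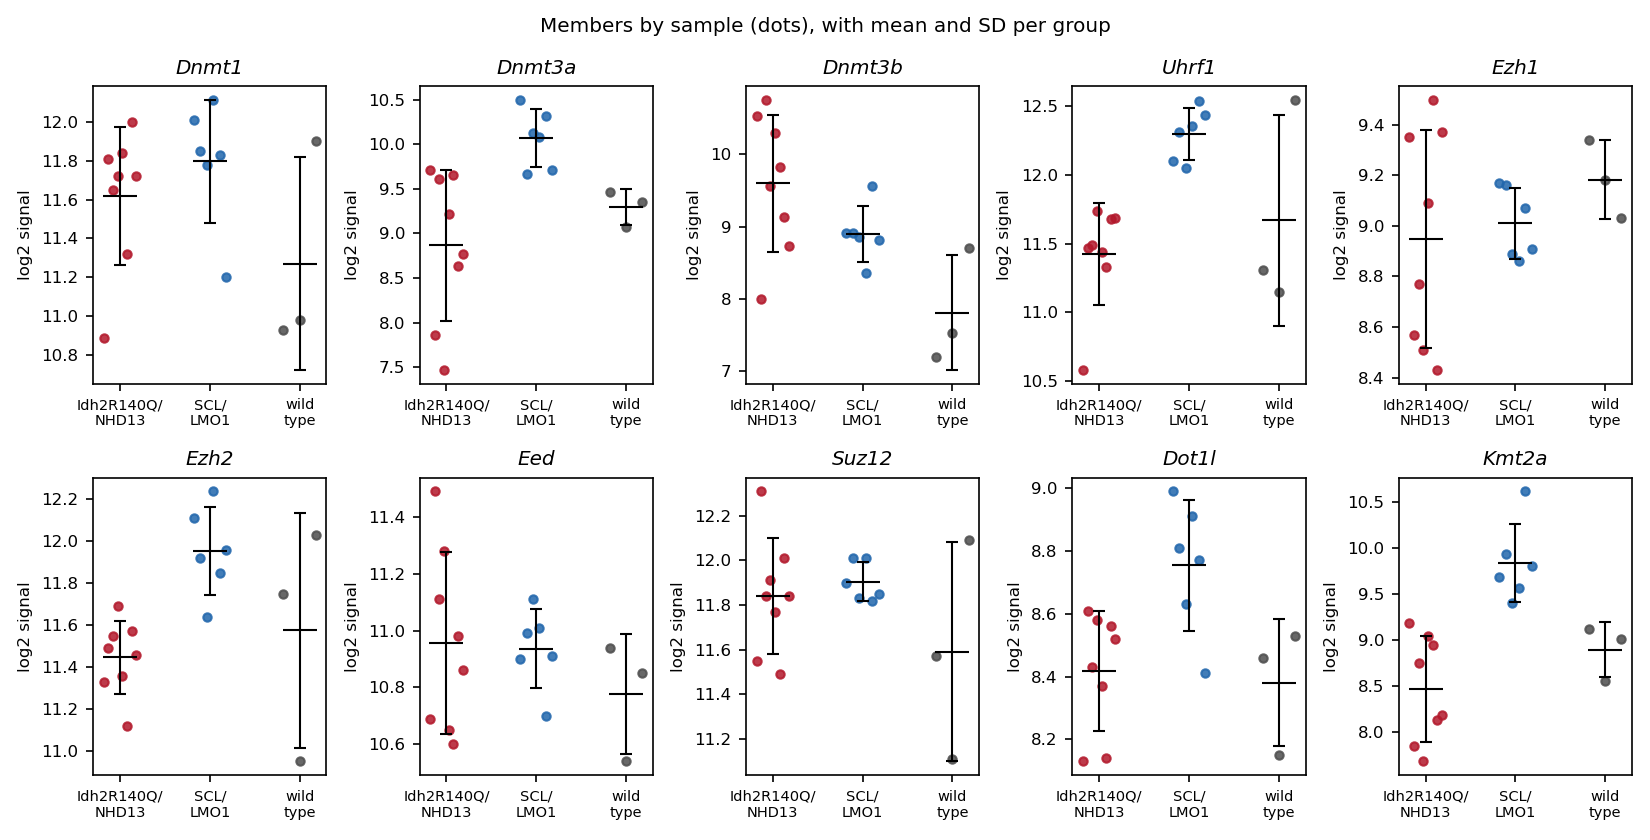
Log2 signal of the 10 genes in each of the 17 samples (dots), with the mean (long line) and SD (bars) of Idh2R140Q/NHD13 spleen (n = 8), SCL/LMO1 thymus (n = 6) and wild-type thymus (n = 3); each panel has its own axis, which does not start at 0. The Idh2R140Q/NHD13 dots of Uhrf1 and Kmt2a lie below all SCL/LMO1 dots.

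Among the genes of maintenance methylation, Uhrf1 separated the leukaemias and Dnmt1 did not. Uhrf1 ranged from 10.58 over a median of 11.48 to 11.74 in Idh2R140Q/NHD13 spleens, against 12.05, 12.34 and 12.54 (lowest, median and highest) in SCL/LMO1 thymi. In wild-type thymus it was 11.31, 11.15 and 12.55 in mice 623, 627 and 631. The leukaemias did not overlap, and the log2 fold change of Idh2R140Q/NHD13 over SCL/LMO1 was -0.87 (SE 0.21, adjusted p = 0.00665), or 1.83-fold lower. Its second probe set gave -0.69 (SE 0.23, adjusted p = 0.0393 over all probe sets). Wild-type thymus lay between the leukaemias in mean, with mouse 631 as high as the highest SCL/LMO1 thymus, and differed from neither group by the test.

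Dnmt1 was 10.89 at its lowest, 11.72 at its median and 12 at its highest in Idh2R140Q/NHD13 spleens, and 11.20, 11.84 and 12.11 in SCL/LMO1 thymi. In wild-type thymus it was 10.93, 10.98 and 11.90. The groups overlapped throughout. The log2 fold change was -0.18 (SE 0.20, adjusted p = 0.56) between the leukaemias, 0.35 (SE 0.24, adjusted p = 0.321) for Idh2R140Q/NHD13 over wild type and 0.53 (SE 0.26, adjusted p = 0.197) for SCL/LMO1 over wild type. All 3 of its probe sets had the same sign as these values and none was called.

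Of the de novo enzymes, Dnmt3a was lower in Idh2R140Q/NHD13 spleen than in SCL/LMO1 thymus, and Dnmt3b was higher in Idh2R140Q/NHD13 spleen than in wild-type thymus. Dnmt3a ranged from 7.47 over a median of 9.00 to 9.71 in Idh2R140Q/NHD13 spleens and from 9.67 over 10.10 to 10.50 in SCL/LMO1 thymi. It was 9.46, 9.07 and 9.35 in wild-type thymi. Only mouse 524, at 9.71, reached into the SCL/LMO1 range, and mice 531 (7.47) and 525 (7.86) lay lowest. The log2 fold change of Idh2R140Q/NHD13 over SCL/LMO1 was -1.20 (SE 0.33, adjusted p = 0.0136), or 2.3-fold lower. All 5 Dnmt3a probe sets fell, by 0.75 to 1.68 on the log2 scale, with adjusted p from 0.00378 to 0.0495 over all probe sets, 24.1% of which were called. Without mice 525, 531 and 570 the fold change shrank to -0.70 and stayed called (adjusted p = 0.0324). Dnmt3a stood highest in SCL/LMO1 thymus, then in wild-type thymus and lowest in Idh2R140Q/NHD13 spleen. Neighbours in that order did not differ by the test (adjusted p = 0.471 for Idh2R140Q/NHD13 over wild type and 0.258 for SCL/LMO1 over wild type), although no SCL/LMO1 value overlapped a wild-type one.

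Dnmt3b was 8.0 at its lowest, 9.70 at its median and 10.76 at its highest in Idh2R140Q/NHD13 spleens, and 8.36, 8.88 and 9.56 in SCL/LMO1 thymi. In wild-type thymi it was 7.20, 7.53 and 8.71. Mice 526 and 524 and the mean of 546 and 550 were highest, at 10.30 to 10.76, while mouse 525, at 8.0, lay inside the wild-type range. The order of the means was Idh2R140Q/NHD13, SCL/LMO1 and wild type. Over wild type, the log2 fold change in Idh2R140Q/NHD13 spleen was 1.80 (SE 0.49, adjusted p = 0.0213), and the second probe set gave 1.54 (SE 0.46, adjusted p = 0.0333 over all probe sets, 16.6% of which were called). The call rests on few wild-type mice: the adjusted p was 0.135 without mouse 623 and 0.0913 without mouse 627. Neither neighbouring pair passed the test, at 0.70 (SE 0.39, adjusted p = 0.22) for Idh2R140Q/NHD13 over SCL/LMO1 and 1.09 (SE 0.52, adjusted p = 0.185) for SCL/LMO1 over wild type. Without mice 525, 531 and 570 Dnmt3b was also called against SCL/LMO1, at 1.21 (adjusted p = 0.0214).

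Because the array compares a probe set only with itself, the change in the gap between both genes was tested within each array. Dnmt3b minus Dnmt3a was 0.83 in mouse 524, 0.14 in 525, 1.15 in 526, 2.11 in 531, 1.08 in 546 with 550, 0.16 in 555, 0.49 in 559 and -0.04 in 570. In SCL/LMO1 thymi it ran from -1.72 to -0.75, and in wild-type thymi it was -2.27, -1.54 and -0.64. Every Idh2R140Q/NHD13 spleen thus lay above every thymus, including the mice with few T-lineage markers. The mean gap was 0.74 ± 0.71 (SD, n = 8) in Idh2R140Q/NHD13, against -1.16 ± 0.43 (SD, n = 6) in SCL/LMO1 and -1.48 ± 0.81 (SD, n = 3) in wild type. The shift against SCL/LMO1 was 1.90 (two-sided exact permutation test, p = 0.00067, the smallest it can give, 0.004 after adjustment over 6 such differences). Against wild type it was 2.22 (exact permutation p = 0.012, also the smallest possible, adjusted 0.036). That call was lost without any 1 of the 3 wild-type mice (adjusted p = 0.133) and without any 1 of 7 spleens (0.05), where fewer samples allow fewer permutations, in all in 10 of 18 such settings. SCL/LMO1 and wild type differed by 0.32 (exact permutation p = 0.5, adjusted 0.6). These tests reuse the values of the 2 genes and add no independent samples.

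**Figure D2:**
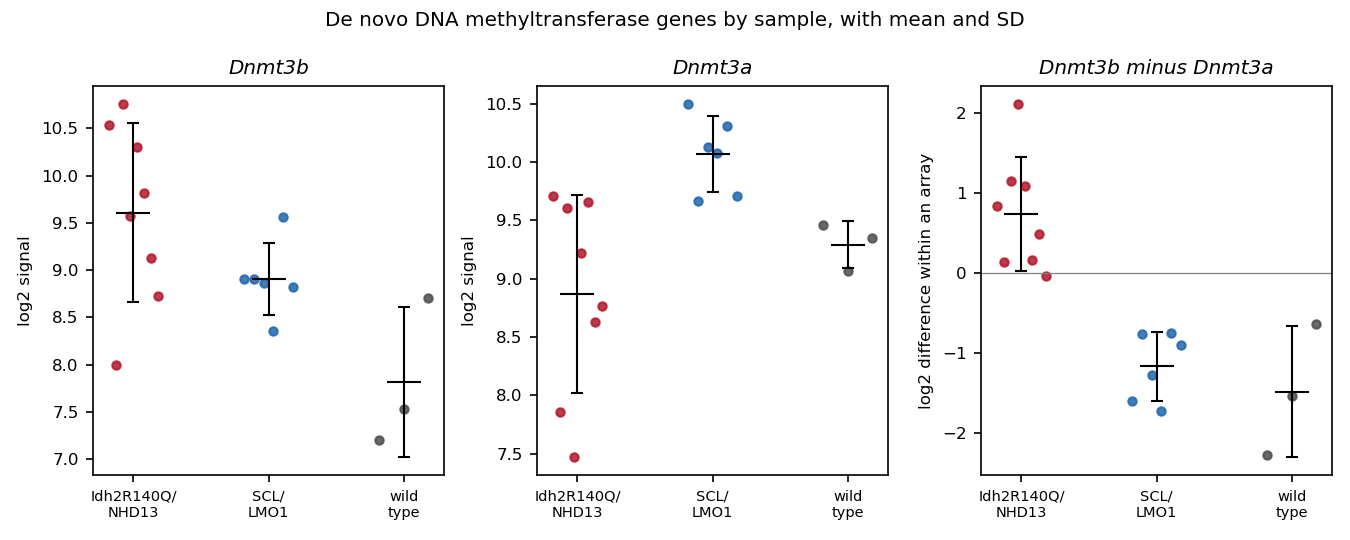
Log2 signal of Dnmt3b and Dnmt3a, and their difference within each array, in the samples of Idh2R140Q/NHD13 spleen, SCL/LMO1 thymus and wild-type thymus (dots), with mean and SD. The difference is at or above -0.04 in all 8 Idh2R140Q/NHD13 samples and at or below -0.64 in all thymi; its zero has no meaning of its own, since the 2 probe sets differ in brightness.

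Of the PRC2 core only Ezh2 changed. It ranged from 11.12 over a median of 11.47 to 11.69 in Idh2R140Q/NHD13 spleens and from 11.64 over 11.94 to 12.24 in SCL/LMO1 thymi, and was 11.75, 10.95 and 12.03 in wild-type thymi. Only mouse 531, at 11.69, lay above the lowest SCL/LMO1 thymus. The log2 fold change between the leukaemias was -0.51 (SE 0.15, adjusted p = 0.0178), or 1.43-fold lower in Idh2R140Q/NHD13 spleen. The wild-type mean of 11.58 lay between them and differed from neither by the test (adjusted p = 0.623 for Idh2R140Q/NHD13 and 0.214 for SCL/LMO1). Ezh2 has a single probe set on this array, so no second reading was at hand.

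Ezh1, the paralogue of Ezh2 that predominates in resting cells, was 8.43 to 9.50 in Idh2R140Q/NHD13 spleens, 8.86 to 9.17 in SCL/LMO1 thymi and 9.03 to 9.34 in wild-type thymi. Its spread was widest in the spleens (SD 0.43, against 0.14 and 0.15 in the thymi), and its fold changes lay between -0.23 and -0.06 with adjusted p of 0.442 or more. Eed, which binds the finished mark, was 10.60 to 11.49, 10.70 to 11.11 and 10.54 to 10.94 in the same order of groups. Suz12, which holds the complex together, was 11.49 to 12.31, 11.82 to 12.01 and 11.11 to 12.09. Neither was called in any comparison, with log2 fold changes of 0.02 (SE 0.14) for Eed and -0.07 (SE 0.14) for Suz12 between the leukaemias. The gap of Ezh2 over Ezh1 within an array averaged 2.50 ± 0.59 in Idh2R140Q/NHD13 spleen (SD, n = 8), 2.95 ± 0.24 in SCL/LMO1 thymus (SD, n = 6) and 2.39 ± 0.61 in wild-type thymus (SD, n = 3). No pair of groups passed the test in it (exact permutation, adjusted p = 0.18 or more). With the mean of all probe sets per gene, Ezh2 minus Ezh1 did between the leukaemias, at -0.42 (exact permutation, adjusted p = 0.0266). That setting alters only Ezh1, since Ezh2 has a single probe set. It averages in Ezh1 sets with mean signals of 6.31, 3.73 and 3.38, so it is little evidence of a shift between the paralogues.

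Kmt2a changed most among the 10 genes in the comparison of the leukaemias, as read by its brightest probe set. It was 7.68 at its lowest, 8.47 at its median and 9.18 at its highest in Idh2R140Q/NHD13 spleens, and 9.40, 9.75 and 10.62 in SCL/LMO1 thymi. In wild-type thymi it was 9.12, 8.56 and 9.01. The leukaemias did not overlap, and the log2 fold change was -1.37 (SE 0.26, adjusted p = 0.00107), or 2.58-fold lower. With Uhrf1 this made 2 of 10 genes lower without overlap, in a comparison where 8.69% of all genes did not overlap (3.96% lower and 4.73% higher). Against wild type none of the 10 genes was free of overlap in Idh2R140Q/NHD13 spleen, as 12.2% of all genes were (6.99% higher and 5.16% lower). The second Kmt2a probe set, almost equally bright, gave a smaller difference of -0.54 (SE 0.30), which was not called (adjusted p = 0.217), so the size of the change depends on the probe set read. The order was SCL/LMO1, wild type and Idh2R140Q/NHD13. SCL/LMO1 exceeded wild type in every sample, with a log2 fold change of 0.94 (SE 0.33) that missed the threshold (adjusted p = 0.0799), and Idh2R140Q/NHD13 overlapped wild type (-0.43, SE 0.32, adjusted p = 0.358).

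Dot1l differed by less. It ranged from 8.13 over a median of 8.48 to 8.61 in Idh2R140Q/NHD13 spleens and from 8.41 over 8.79 to 8.99 in SCL/LMO1 thymi, and was 8.46, 8.15 and 8.53 in wild-type thymi. Mouse 7114/1 was the SCL/LMO1 thymus at 8.41, and the other 5 lay above every spleen. The log2 fold change between the leukaemias was -0.33 (SE 0.11, adjusted p = 0.0363), and the second probe set gave -0.43 (SE 0.10, adjusted p = 0.00503). The call on the first probe set was lost without any 1 of mice 524, 555, 3767, 7114/3, 6466/4 and 6883/2, with adjusted p up to 0.0868. Against wild type, Idh2R140Q/NHD13 differed by 0.04 (SE 0.14, adjusted p = 0.858). SCL/LMO1 exceeded wild type by 0.37 (SE 0.14, adjusted p = 0.105) on the first probe set and by 0.77 (SE 0.13, adjusted p = 0.00198 over all probe sets, 10.9% of which were called) on the second.

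**Figure D3:**
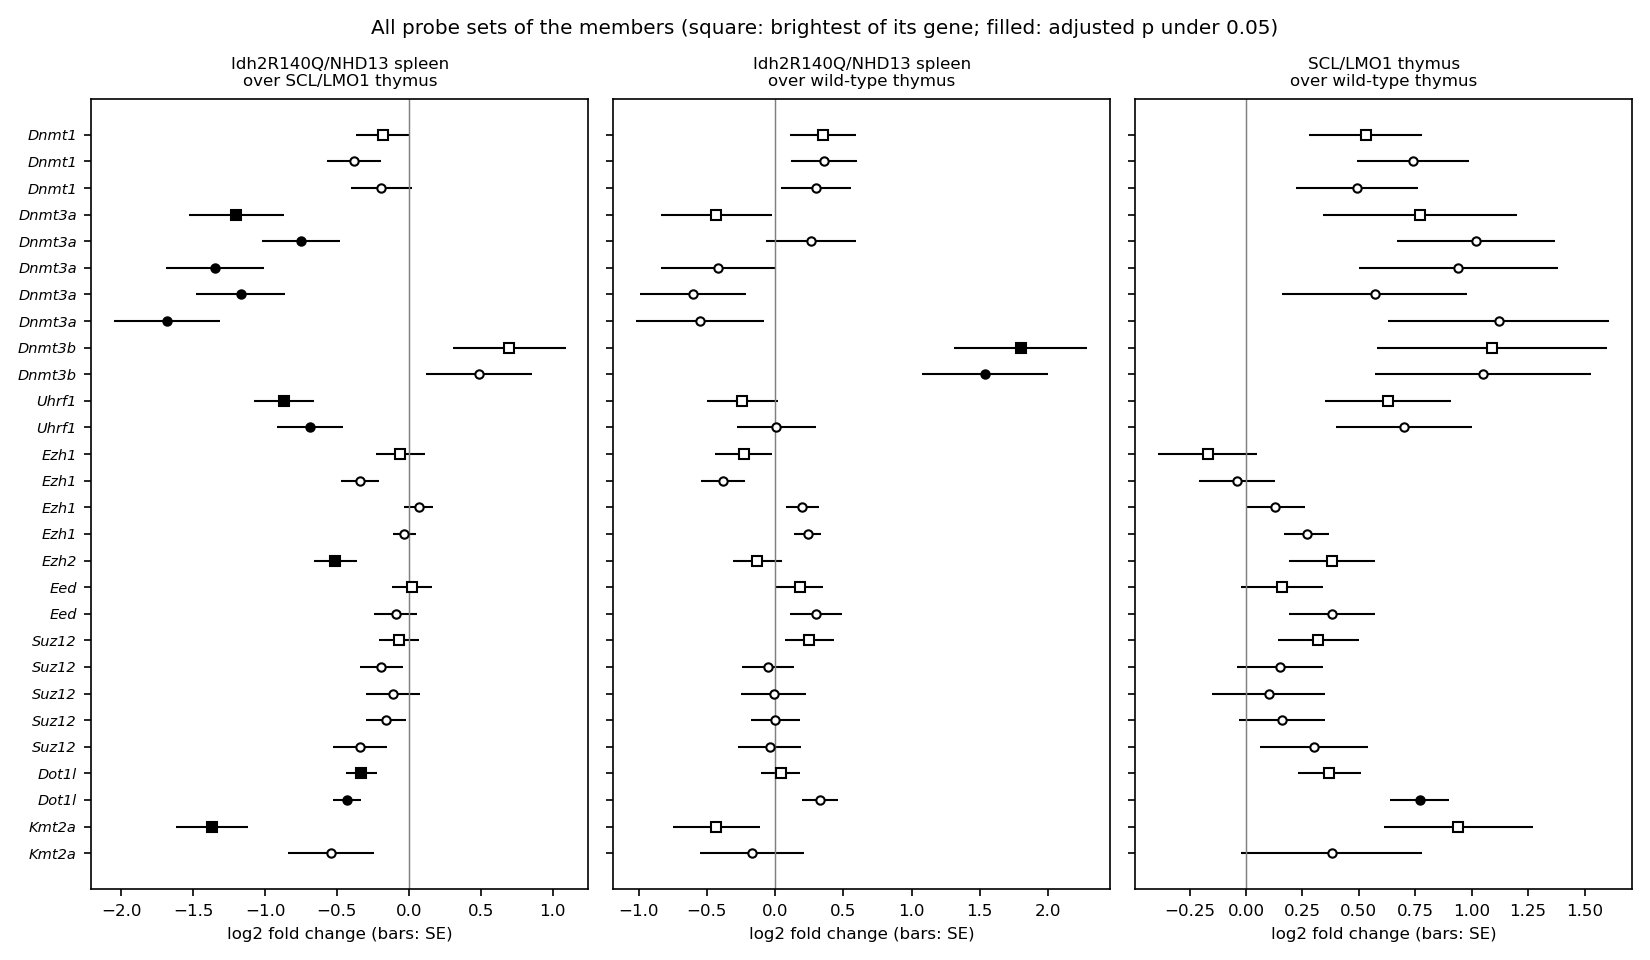
Log2 fold change (points) and SE (bars) of all 28 probe sets in the 3 comparisons; squares mark the brightest probe set of a gene and filled symbols an adjusted p under 0.05 over all probe sets, and each panel has its own axis. All 5 Dnmt3a sets lie left of 0 between the leukaemias, both Dnmt3b sets lie right of it in every panel, and the 2 Kmt2a sets differ in size.

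Between SCL/LMO1 and wild-type thymus, the comparison within 1 tissue, none of the 10 genes was called by limma, and at an unadjusted p under 0.05 there were 3, Kmt2a, Dot1l and Uhrf1, all higher in SCL/LMO1, where 27.2% of all genes passed (15.1% higher). Of the 10 genes 9 had a positive fold change, with a median of 0.45 against 0.08 for all genes. Dnmt3a and Kmt2a did not overlap, both higher, where 20.9% of all genes did not (11.3% higher and 9.58% lower). Wild-type mouse 631 had more cell-cycle signal than the other wild-type mice: its mean of 16 mitosis genes was 10.96, against 10.30 in mouse 623 and 9.84 in mouse 627, and its Uhrf1, Dnmt1, Dnmt3b, Ezh2, Suz12 and Dot1l were the highest of the 3. Without it, Uhrf1 (1.07, adjusted p = 0.00813), Dnmt1 (0.84, adjusted p = 0.0423) and Suz12 (0.57, adjusted p = 0.0473) were called higher in SCL/LMO1, while 13.6% of all genes were called in either direction. Without mice 525, 531 and 570, which changes only the shared estimate of spread here, Kmt2a was called (adjusted p = 0.0374).

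How far these genes followed proliferation was measured within each leukaemia, against the mean of 16 mitosis genes. That mean was 9.55 to 11.06 in Idh2R140Q/NHD13 spleens, 10.49 to 11.11 in SCL/LMO1 thymi and 9.84 to 10.96 in wild-type thymi. In the spleens the maintenance genes rose with it: Pearson's r was 0.94 for Uhrf1 (exact permutation p = 0.00099, adjusted 0.02 over 20 correlations; Spearman's rho 0.90, p = 0.0046, adjusted 0.091) and 0.90 for Dnmt1 (p = 0.011, adjusted 0.045; rho 0.62, p = 0.11, adjusted 0.23). For Dot1l r was 0.90 (exact permutation p = 0.0042, adjusted 0.028; rho 0.76, p = 0.037, adjusted 0.15). Leaving out the 2 spleens farthest from the median mitosis mean gave r of 0.77 for Uhrf1, 0.80 for Dot1l and 0.33 for Dnmt1, so the relation of Dnmt1 rests on those samples.

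Kmt2a and Dnmt3a ran the other way, lower in the spleens with more mitosis signal. For Kmt2a r was -0.84 (exact permutation p = 0.0057, adjusted 0.028; rho -0.76, p = 0.037, adjusted 0.15), and -0.83 without the 2 farthest spleens. For Dnmt3a it was -0.77 (exact permutation p = 0.0044, adjusted 0.028; rho -0.83, p = 0.015, adjusted 0.15), and -0.76 without them. Dnmt3b fell as well but did not pass, with r of -0.69 (exact permutation p = 0.039, adjusted 0.099) and -0.77 without them. No rank correlation passed the adjustment. Among the 6 SCL/LMO1 thymi no correlation passed it either; the closest was Suz12, with r of 0.85 (exact permutation p = 0.017, adjusted 0.056; rho 0.89, p = 0.033, adjusted 0.15) and 0.81 without the 2 farthest thymi. The spleens with the highest mitosis means, mice 531 and 570 at 11.06, also had the highest erythroid means, 12.38 and 12.36. Those with the lowest, mice 524 at 9.55 and 555 at 10.24, had the lowest erythroid means, 9.89 and 8.58. Mice 525, 531 and 570, lowest in T-lineage markers, had mitosis means of 10.92, 11.06 and 11.06. Mice 525 and 531 also had the lowest Kmt2a (7.85 and 7.68) and Dnmt3a (7.86 and 7.47), while mouse 570 had 8.19 and 8.77. The part of red-cell precursors or of low T-lineage content in these correlations was not tested. With the mitosis mean as a covariate in limma, the same 5 genes were called lower in the Idh2R140Q/NHD13 samples. The log2 fold changes over SCL/LMO1 were -0.74 for Uhrf1 (adjusted p = 0.000992), -0.44 for Ezh2 (0.0123), -0.27 for Dot1l (0.0195), -1.49 for Kmt2a (0.00015) and -1.35 for Dnmt3a (0.00224). That fit called 27.6% of all genes, against 23.7% without the covariate. It used 1 slope for all 3 groups, while r differed between the leukaemias. For Uhrf1 r was 0.94 in the spleens and -0.32 in the SCL/LMO1 thymi, and for Dnmt3a -0.77 and -0.1. Such a fit cannot take out the mitosis signal of each group, and the part of proliferation was not tested.

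**Figure D4:**
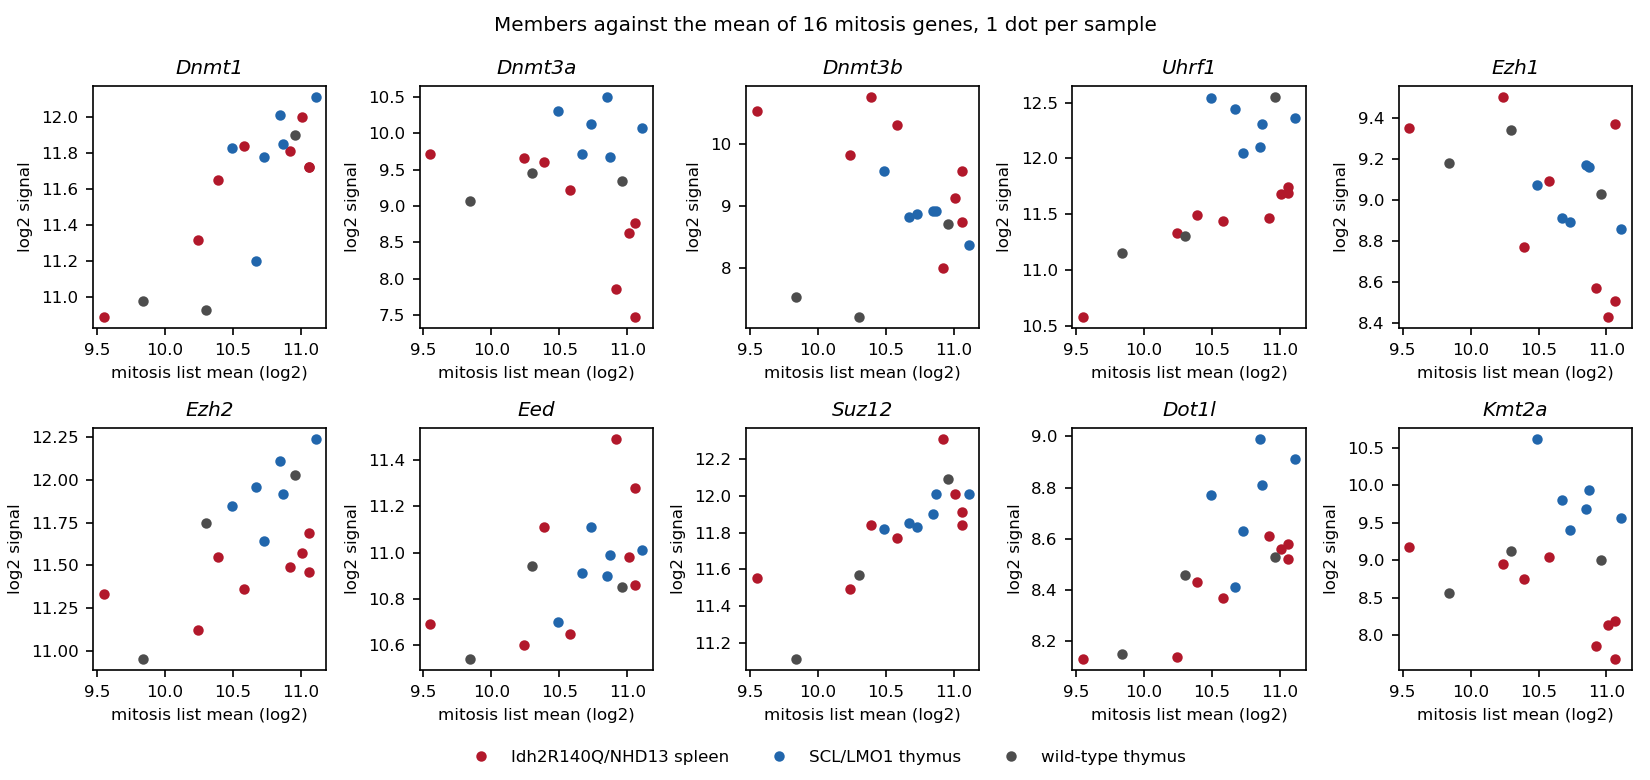
Log2 signal of each of the 10 genes (vertical axes) against the mean log2 signal of 16 mitosis genes (horizontal axes), with 1 dot per sample coloured by group. Uhrf1, Dnmt1 and Dot1l rise with the mitosis mean in the Idh2R140Q/NHD13 dots (r = 0.94, 0.90 and 0.90), and Kmt2a and Dnmt3a fall (r = -0.84 and -0.77). All SCL/LMO1 dots of Uhrf1 and Kmt2a lie above all Idh2R140Q/NHD13 dots, and samples were not matched by the mitosis mean.

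Across all 17 samples, with each group's mean removed, the genes fell into 2 loose sets. These correlations are descriptions over samples that share arrays and cell mixtures. Dnmt1 went with Dot1l (r = 0.81), Uhrf1 (0.73) and Suz12 (0.71), Ezh2 with Suz12 (0.77) and Uhrf1 (0.61), and Eed with Suz12 (0.71). Dnmt3a went with Kmt2a (0.77), and Kmt2a with Dnmt3b (0.69). Ezh1 ran against Eed (-0.70). The genes most like each member were sought, by the same measure, among 9784 genes. These had a mean signal above the median of all genes, and clone-type symbols were left out. The closest were Plk1, a mitotic kinase, for Dnmt1 (0.93), Cdca5, a cohesion factor, for Uhrf1 (0.91), Bub3 of the spindle checkpoint for Ezh2 (0.89), Ran for Suz12 (0.93), Thoc1 for Eed (0.96) and Dennd2c for Dot1l (0.90). Next came Anp32b (0.92) and Rps2 (0.9) for Dnmt1, Stil (0.9) and Tacc3 (0.89) for Uhrf1, and Rhno1 (0.89) and Yeats4 (0.88) for Ezh2. For Dnmt3b the closest was Notch3, a receptor active in T-cell leukaemia (0.90), for Dnmt3a Ube2q1, Arhgef2 and Fam107b (0.95 each), for Kmt2a Dip2b (0.95) and for Ezh1 Scamp2 (0.90).

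For this and the later lists, 12.1% of all genes were called lower and 11.7% higher between the leukaemias. With dim genes left out, 32.9% were called there, in place of 23.7%. Over wild type, 9.09% were higher and 8.34% lower in Idh2R140Q/NHD13, and 5.06% and 6.55% in SCL/LMO1. Of 14 partners of DNA methylation, 3 were lower and none higher in Idh2R140Q/NHD13 spleens against SCL/LMO1 thymi. Their median log2 fold change was -0.26. Cdca7, which recruits the remodeller HELLS, averaged 10.54 ± 0.30 in Idh2R140Q/NHD13 spleen, 11.68 ± 0.15 in SCL/LMO1 thymus and 11.55 ± 0.50 in wild-type thymus (SD, n = 8, 6 and 3). It was thus lower in the spleens than in either thymus (-1.14, SE 0.16, adjusted p = 9.47e-05, and -1.0, SE 0.20, adjusted p = 0.00313). Trdmt1, formerly Dnmt2, a methyltransferase of transfer RNA, fell by 0.73 (adjusted p = 0.00184), and Zbtb33, a reader of methylated DNA, by 0.50 (adjusted p = 0.0363). Against wild type 1 of 14 was higher, Ahcy, which clears the by-product of methylation (0.93, adjusted p = 0.0276), and 1 lower, Cdca7. None of 14 was called between SCL/LMO1 and wild type. Of 15 measured germline genes known to be silenced by DNA methylation, none differed between the leukaemias. The mean log2 signal of this list was 4.07 in Idh2R140Q/NHD13 spleen, 4.02 in SCL/LMO1 thymus and 4.25 in wild-type thymus. That is below the array medians of 5.89 to 6.01, so the absence of a call says little about these genes. Against wild-type thymus 2 were lower in each leukaemia, the meiotic gene Sycp3 (-3.43, adjusted p = 0.000534, in Idh2R140Q/NHD13 and -3.63, adjusted p = 0.000855, in SCL/LMO1) and Brdt of the testis (-1.72, adjusted p = 0.0015, and -1.12, adjusted p = 0.033).

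Of 8 accessory subunits of PRC2, 2 were lower in Idh2R140Q/NHD13 spleen than in SCL/LMO1 thymus and none higher. Mtf2, which leads PRC2 to CpG islands, averaged 10.63 ± 0.38 in Idh2R140Q/NHD13 spleen (SD, n = 8), 12.50 ± 0.37 in SCL/LMO1 thymus (SD, n = 6) and 11.29 ± 0.26 in wild-type thymus (SD, n = 3). It fell by 1.87 on the log2 scale between the leukaemias (SE 0.19, adjusted p = 4.46e-06) and was 1.21 higher in SCL/LMO1 than in wild type (SE 0.25, adjusted p = 0.00549). Jarid2, a second recruiter, ran the same way (-0.75, adjusted p = 0.0054, and 0.90, adjusted p = 0.0193). Phf1, a relative of Mtf2, was lower than wild type in both leukaemias (-0.86, adjusted p = 0.0204, in Idh2R140Q/NHD13 and -1.32, adjusted p = 0.00301, in SCL/LMO1). These were the called genes of 8 in the comparisons with wild type: 0 higher and 1 lower for Idh2R140Q/NHD13, 2 higher and 1 lower for SCL/LMO1.

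Some forms of Polycomb repressive complex 1 bind the PRC2 mark. Of 18 measured subunits of this complex, 4 were lower and 2 higher in Idh2R140Q/NHD13 spleen than in SCL/LMO1 thymus. Phc1 fell by 1.27 (adjusted p = 8.63e-05) and the reader Cbx7 by 1.01 (adjusted p = 0.00982), while Pcgf5 (0.63, adjusted p = 0.0402) and Yaf2 (0.54, adjusted p = 0.0423) were higher. Against wild type 1 was higher in Idh2R140Q/NHD13, Pcgf6, and 3 lower, Phc1 and Cbx8 among them. Between SCL/LMO1 and wild type only Pcgf1 was called, higher by 0.97 (adjusted p = 0.0151).

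Of 17 genes of the KMT2 complexes, 5 were lower in Idh2R140Q/NHD13 spleen than in SCL/LMO1 thymus and none higher, with a median of -0.17. Kmt2d averaged 9.61 ± 0.29 in Idh2R140Q/NHD13 spleen (SD, n = 8), 10.31 ± 0.44 in SCL/LMO1 thymus (SD, n = 6) and 9.27 ± 0.41 in wild-type thymus (SD, n = 3). It was lower in Idh2R140Q/NHD13 spleen than in SCL/LMO1 thymus (-0.70, SE 0.19, adjusted p = 0.0137), and Kmt2b (-0.55, adjusted p = 0.00231) and Psip1, which tethers KMT2A to chromatin (-0.54, adjusted p = 0.0167), were lower too. Between SCL/LMO1 and wild type 6 of 17 were higher and none lower, against 5.06% of all genes called higher, with a median of 0.45. The 3 with the smallest p were Cxxc1, which binds CpG islands (0.58, adjusted p = 0.00572), Hcfc1 (0.59, adjusted p = 0.0117) and Kmt2d (1.04, adjusted p = 0.0146). Idh2R140Q/NHD13 exceeded wild type in 2 of 17, Wdr5, a shared core subunit (0.63, adjusted p = 0.00747), and Hcfc1 (0.44, adjusted p = 0.0314).

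Of 9 partners of Dot1l and of transcription elongation, many known as fusion partners of KMT2A in human leukaemia, 4 were lower and 1 higher in Idh2R140Q/NHD13 spleen than in SCL/LMO1 thymus. Mllt6 (-1.43, adjusted p = 0.0127), Aff1 (-0.79, adjusted p = 0.023) and Aff4 (-0.69, adjusted p = 0.0174) were lower, and Mllt3, the AF9 that ties DOT1L to chromatin, was higher (0.80, adjusted p = 0.0247). Mllt3 (0.95, adjusted p = 0.0419) and Ell (0.52, adjusted p = 0.0307) were also higher than in wild type, and none of 9 changed between SCL/LMO1 and wild type.

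Of 12 known target genes of KMT2A and DOT1L, 7 were higher in Idh2R140Q/NHD13 spleen than in SCL/LMO1 thymus and none lower, with a median log2 fold change of 1.62. Hoxa5 averaged 8.58 ± 0.23 in Idh2R140Q/NHD13 spleen (SD, n = 8), 7.13 ± 0.12 in SCL/LMO1 thymus (SD, n = 6) and 8.03 ± 0.69 in wild-type thymus (SD, n = 3). Over SCL/LMO1, Hoxa5 rose by 1.45 (adjusted p = 1.57e-05), Hoxa7 by 1.79 (adjusted p = 8.69e-05) and Pbx3, a cofactor of HOX proteins, by 3.65 (adjusted p = 0.000179). Against wild type 5 of 12 were higher in Idh2R140Q/NHD13 and 2 lower, Meis1 (-2.02, adjusted p = 0.0013) among them. In SCL/LMO1 thymus 3 were lower than in wild type, Meis1 (-2.62, adjusted p = 0.00042) and Hoxa5 (-0.90, adjusted p = 0.0146) among them, and none higher. Meis1 and Flt3 of this list also stand among the progenitor markers.

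**Figure D5:**
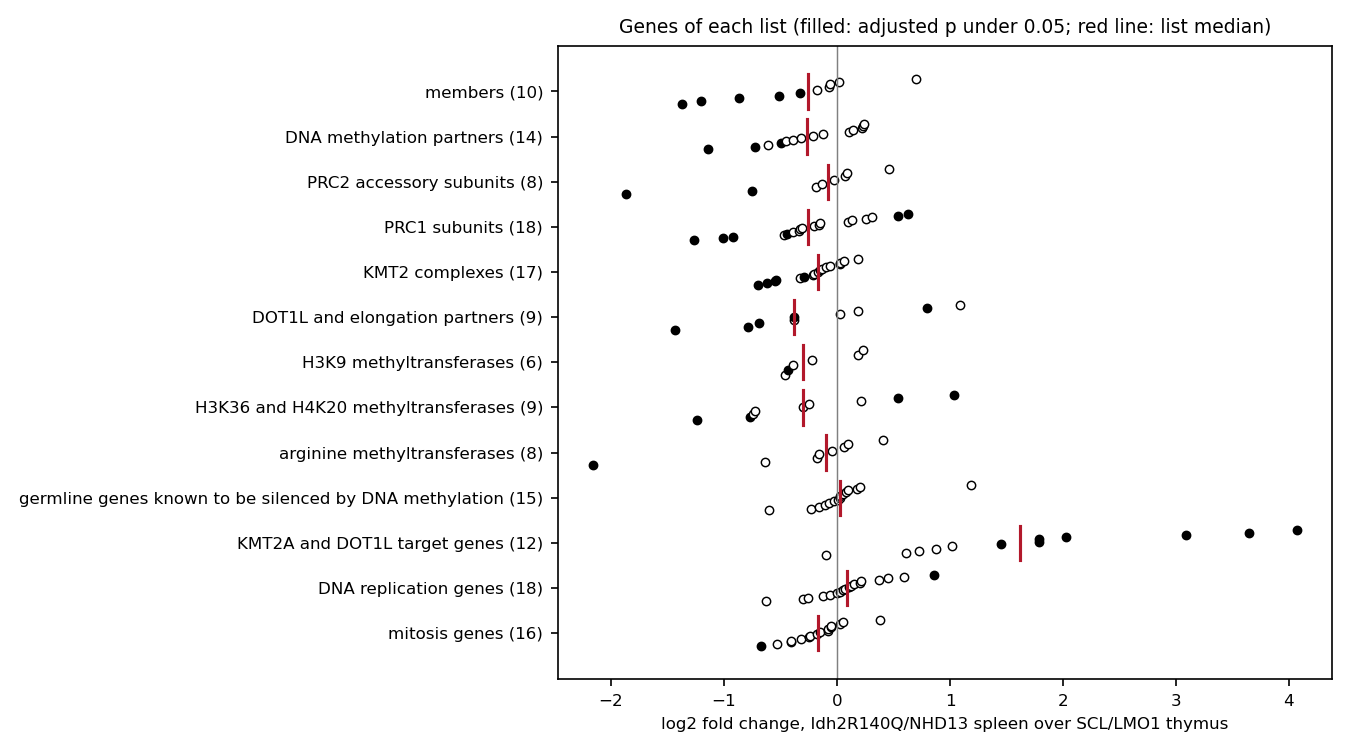
Log2 fold change of Idh2R140Q/NHD13 spleen over SCL/LMO1 thymus for the 10 genes described here (the row named members) and for 12 gene lists, with 1 dot per gene, filled at an adjusted p under 0.05, and a red line at each list's median; numbers in brackets are genes measured. The 5 called members and the 5 called KMT2 genes lie left of 0, and the 7 called KMT2A and DOT1L targets lie right of it.

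Other histone methyltransferases changed gene by gene. Of 6 enzymes of H3K9, Ehmt1 was lower in Idh2R140Q/NHD13 spleen than in SCL/LMO1 thymus (-0.43, adjusted p = 0.02). Against wild type Setdb1 was higher in Idh2R140Q/NHD13 (0.41, adjusted p = 0.0347) and in SCL/LMO1 (0.63, adjusted p = 0.00603), and Suv39h1 in SCL/LMO1 (1.13, adjusted p = 0.00617). Of 9 enzymes of H3K36 and H4K20, Nsd1 (-1.24, adjusted p = 0.00015) and Nsd2 (-0.77, adjusted p = 0.0249) were lower and 2, Kmt5c (1.04, adjusted p = 0.00357) among them, higher in Idh2R140Q/NHD13 spleen than in SCL/LMO1 thymus. Against wild type 1 was higher, Kmt5c, and 2 lower, Nsd1 and Kmt5b, in Idh2R140Q/NHD13, and only Smyd2 was higher in SCL/LMO1 (1.26, adjusted p = 0.0435).

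Of 8 arginine methyltransferases, only Prmt7 was lower in Idh2R140Q/NHD13 spleen than in SCL/LMO1 thymus. It averaged 9.36 ± 0.72 in Idh2R140Q/NHD13 spleen (SD, n = 8), 11.52 ± 0.65 in SCL/LMO1 thymus (SD, n = 6) and 8.45 ± 0.47 in wild-type thymus (SD, n = 3). The SCL/LMO1 level was 8.41-fold the wild-type one (log2 fold change 3.07, SE 0.44, adjusted p = 0.000526). Against wild type 4 of 8 were higher in Idh2R140Q/NHD13, Prmt3, Carm1 and Prmt5 with the smallest p, and 3 in SCL/LMO1, Prmt7, Prmt3 and Prmt5.

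Cell-type markers moved with all these comparisons. Idh2R140Q/NHD13 spleen exceeded SCL/LMO1 thymus in 12 of 12 erythroid, 7 of 10 early progenitor, 6 of 9 neutrophil granule, 6 of 10 macrophage and 4 of 6 megakaryocyte markers. It was lower in 11 of 12 T-lineage, 9 of 10 double-positive thymocyte and 1 of 8 B-cell markers, in none of 9 thymic epithelium markers, and mixed in spleen stroma markers, with 4 of 8 higher and 2 lower. The double-positive mean was 5.89 to 8.61 in Idh2R140Q/NHD13 spleens, against 9.95 to 11.46 in SCL/LMO1 and 11.23 to 11.90 in wild-type thymi. Against wild type, Idh2R140Q/NHD13 was higher in 12 of 12 erythroid, 8 of 9 neutrophil, 3 of 6 megakaryocyte and 1 of 10 macrophage markers. It was lower in 8 of 10 double-positive, 6 of 9 thymic epithelium, 6 of 8 B-cell and 5 of 12 T-lineage markers. Early progenitor markers were mixed, with 6 of 10 higher and 2 lower, and so were spleen stroma markers, with 4 of 8 higher and 1 lower. SCL/LMO1 thymus was lower than wild type in 5 of 9 thymic epithelium and 2 of 8 B-cell markers. The epithelium mean was 5.51 to 8.74 in SCL/LMO1 and 8.87 to 9.55 in wild type. SCL/LMO1 was also lower in 1 of 10 double-positive, 2 of 10 early progenitor and 2 of 10 macrophage markers. It was higher in 1 of 12 T-lineage markers and differed in no erythroid or neutrophil marker. Few cell-cycle genes were called: 1 of 16 mitosis genes was lower and 1 of 18 replication genes higher in Idh2R140Q/NHD13 spleen than in SCL/LMO1 thymus. Against wild type, none of 16 and 2 of 18 were higher in each leukaemia. The list medians still lay above those of all genes there. For Idh2R140Q/NHD13 over wild type they were 0.24 for mitosis and 0.67 for replication, against 0.1 for all genes. For SCL/LMO1 over wild type they were 0.43 and 0.53, against 0.08. The part of cell mixture in the differences of the 10 genes was not tested. Without the 3 spleens lowest in T-lineage markers, 6 of the 10 genes were called between the leukaemias, the same 5 lower and Dnmt3b higher, while 18.5% of all genes were called.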

How the data were processed

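RNA was extracted with TRIzol, reverse transcribed and biotin labelled, per the labels' protocols. The deposited values were log2 signals of 45101 probe sets per array. The summarisation and normalization used by the authors are not given here. Of the probe sets 38089 carry 1 gene symbol, 6948 none and 64 are controls; 35121 were matched to RefSeq by Entrez ID, which updated 1813 symbols. The 36 columns of a second table that carry only array numbers were not used.

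The brightest probe set stood for each gene. Samples were grouped by the genotype and tissue in the labels, and limma 3.58.1 (R 4.3.3) fitted the 3 groups together, with Benjamini-Hochberg adjustment over 20672 genes and a threshold of 0.05. Differences within an array and correlations were tested with exact permutations (scipy 1.17.1), two-sided. The arrays of mice 546 and 550 were averaged. The members and gene lists were chosen with earlier results of these data known. Besides the members, the text names from each list and comparison the 3 called genes with the smallest adjusted p and any called gene against the main direction, and for each member the genes most like it; other genes named were chosen after their values were seen, and a gene that the rule picks is not reported here. Nothing says whether labels mark independent litters or batches. The p-values set group differences against the spread between these samples and take the samples as independent. Shared litters or batches could make them too small. The number of arrays limits the precision. Scripts were tested on simulated data. Alternatives changed the normalization, probe sets, filter, weights, threshold and samples.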

Additional observations from a re-analysis of the deposited data

Results flagged for a closer look

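Within groups of 4 to 10 samples, 2 of 20 combinations of gene and group held a sample far from the rest, where chance gives about 1 in 20. Uhrf1 was 10.58 in Idh2R140Q/NHD13 mouse 524, and the gap to the next spleen was 0.65 of the range; the same mouse had the lowest mitosis mean of its group, 9.55. Dnmt1 was 11.2 in SCL/LMO1 mouse 7114/1, with a gap of 0.63 of the range, while its mitosis mean of 10.67 was inside the range of its group.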

How the results depend on the processing

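Between the leukaemias, 4 to 5 genes were called when any 1 mouse was left out (4073 to 5362 of all genes), and 2 at an adjusted p under 0.01 (2783 of all genes). Kmt2a, Dnmt3a, Uhrf1 and Ezh2 kept their call and direction whichever mouse was left out (-1.467 to -1.209, -1.322 to -1.002, -0.924 to -0.752 and -0.574 to -0.454). The call on Dot1l was lost under quantile normalization (adjusted p = 0.0781) and with a trended, robust fit (0.0657). Against wild type, Idh2R140Q/NHD13 had 0 to 1 genes called when any 1 mouse was left out (1392 to 5297 of all genes; 1392 without 623 and 1982 without 627), 0 with only the 2 groups fitted (2005; Dnmt3b adjusted p = 0.0737) and 0 at an adjusted p under 0.01 (1406); array weights gave 6904 of all genes. In SCL/LMO1 over wild type, 1 gene was called with array medians centred (2925 of all genes), with the mean of all probe sets (2453), with the mitosis covariate (1813) and without mice 525, 531 and 570 (2594), 2 with only the 2 groups fitted (3562) and 4 with array weights (4817). Leaving out any 1 mouse gave 0 to 3, the 3 without mouse 631 (768 to 2993 of all genes; 768 without 627 and 1209 without 623), and 893 genes passed an adjusted p under 0.01.

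The shift of Dnmt3b minus Dnmt3a was 1.71 to 2.017 against SCL/LMO1 when any 1 mouse was left out, called each time. Against wild type it was 1.832 to 2.643, with adjusted p of 0.0364 to 0.133, and 2.226 (adjusted p = 0.107) without mice 525, 531 and 570, where fewer samples leave fewer permutations; SCL/LMO1 over wild type gave -0.073 to 0.738. Ezh2 minus Ezh1 passed between the leukaemias with the mean of all probe sets (-0.423, exact permutation, adjusted p = 0.0266). That mean alters only Ezh1 and takes in its dim sets. For Idh2R140Q/NHD13 over wild type the change turned to -0.09 with that mean and to -0.037 without mice 525, 531 and 570. Its range over left-out mice was -0.208 to 0.404.

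Signs that turned belonged to values that were not called. Between the leukaemias they were Eed (-0.017 with all 18 arrays, -0.01 with medians centred, -0.034 with the mean of probe sets, -0.003 with weights, -0.135 without the 3 mice, -0.087 on another probe set and -0.059 to 0.069 over left-out mice), Suz12 (0.021 with the covariate) and Ezh1 (0.018 without the 3 mice, 0.071 on the dim set at 3.73, -0.14 to 0.014 over left-out mice). For Idh2R140Q/NHD13 over wild type they were Dot1l (-0.043 with the covariate, -0.055 without the 3 mice, -0.078 to 0.116), Uhrf1 (0.006 on its other probe set, -0.5 to 0.199), Ezh2 (-0.444 to 0.094), Dnmt3a (0.073 without the 3 mice, 0.263 on 1 of 5 probe sets), Ezh1 (0.204 and 0.24, on sets with mean log2 signals of 3.73 and 3.38, below the array medians of 5.89 to 6.01, and so little evidence of a sign) and Suz12 (-0.045, -0.007 and -0.04) on other probe sets. For SCL/LMO1 over wild type it was Ezh1 (0.046 with the mean of probe sets, 0.133 and 0.269 on the same dim sets). The causes were not tested. SCL/LMO1 mice 7114/1 and 7114/3 share the number 7114, and their arrays were the next closest pair, at 0.445. Whether they are related is not given, and they were counted as separate samples. With both averaged into 1 sample, 5 of the 10 genes were called between the leukaemias (4209 of all genes). Over wild type, 1 was called for Idh2R140Q/NHD13 (3405) and 0 for SCL/LMO1 (1879). A block for these mice was not run, since a single pair gives no estimate. No paired analysis was possible because the groups share no replicate numbers. The alternative without mice 525, 531 and 570 was chosen after seeing the data. Tissue and genotype cannot be told apart, 3 wild-type mice limit every comparison with them, and arrays measure neither protein nor methylation.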
